A study of Homo sapiens with 12 samples.

Results

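The aryl hydrocarbon receptor (AHR) and its partners and targets were followed in A375 cells, an established human melanoma line. The cells were taken after 24 h as control, with SB-3CT, with IFNγ (interferon gamma) or with SB-3CT and IFNγ together. The titles of the control samples do not say whether these cells were given a vehicle. SB-3CT is a small-molecule inhibitor of the gelatinases MMP2 and MMP9, and IFNγ is a cytokine that induces PD-L1. The 4 groups held 3 RNA-seq samples each, the doses are not given in the sources used here, and all 12 samples came from the same line, so the values describe 1 melanoma line. The labels do not say whether the 3 samples of a group were separate cultures, and the study states of its experiments only in general that they were repeated independently, so the p-values measure the spread between these samples, part of which may be technical. The genes were chosen by symbol (AHR, AHRR, ARNT, CYP1A1, CYP1B1 and ALDH3A1), and the choice followed from the known rise of CYP1A1 with SB-3CT alone. Values of these genes in SB-3CT against control are therefore given as a description with no test, and so are those of CYP1A1 in the other comparisons that use control or SB-3CT samples, whereas the 6 samples with IFNγ took no part in that rise. Of the 6 symbols, 5 had a row among the 4918 genes analysed here, whose symbols run alphabetically between A1BG and FAM46B, while ALDH3A1 had no row.

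AHR is a ligand-activated transcription factor of the bHLH-PAS family. It waits in the cytoplasm with HSP90 chaperones and, once a planar aromatic compound or a tryptophan metabolite binds it, it enters the nucleus, pairs with ARNT and binds xenobiotic response elements that carry the core GCGTG. The cytochrome P450 genes CYP1A1 and CYP1B1 and the aldehyde dehydrogenase gene ALDH3A1 are classical targets, and AHRR, itself a target in many cells, encodes a repressor that competes with AHR for ARNT.

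The promoters of the target that moved most (CYP1A1), of the repressor (AHRR) and of the receptor itself are shown because they differ in the AHR core. The sequences are the 250 bases before the RefSeq start site (GRCh38.p14), written 5′ to 3′ on the gene's strand, and capitals mark GCGTG, which was searched on both strands.
CYP1A1 (chr15:74725529-74725778, minus strand): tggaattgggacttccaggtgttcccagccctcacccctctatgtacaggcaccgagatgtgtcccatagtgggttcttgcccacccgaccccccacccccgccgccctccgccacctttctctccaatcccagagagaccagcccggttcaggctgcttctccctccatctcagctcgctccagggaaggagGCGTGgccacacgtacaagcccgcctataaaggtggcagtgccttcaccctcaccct
AHRR (chr5:321464-321713, plus strand): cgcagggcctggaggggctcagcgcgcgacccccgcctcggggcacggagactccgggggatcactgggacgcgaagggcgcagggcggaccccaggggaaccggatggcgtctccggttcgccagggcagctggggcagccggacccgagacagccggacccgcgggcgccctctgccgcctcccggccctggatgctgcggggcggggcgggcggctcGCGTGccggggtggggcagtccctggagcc
AHR (chr7:17298402-17298651, plus strand): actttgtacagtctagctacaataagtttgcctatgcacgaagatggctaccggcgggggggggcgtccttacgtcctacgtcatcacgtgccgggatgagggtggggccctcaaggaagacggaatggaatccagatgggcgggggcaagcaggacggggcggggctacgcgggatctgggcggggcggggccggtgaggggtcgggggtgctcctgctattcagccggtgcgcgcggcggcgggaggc

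Of the 6 symbols, 4 had an entry among the RefSeq promoters, and CYP1B1 and ALDH3A1 had none. CYP1A1 held 1 core match, 57 to 53 bases before the start site. AHRR held 1 match, 30 to 26 bases before its first start site, and 2 matches before a second start site. AHR and ARNT held 0 matches in this window. Among all 35116 RefSeq promoter windows of this length, 32.2% held at least 1 GCGTG on either strand. Among the windows of the genes analysed here 41.4% did, so a match is common. The longer form TNGCGTG was held by 4.5% of the windows and, among these genes, by the first AHRR window (1 match) and not by that of CYP1A1 (0 matches). GCGTG is also one form of the core that hypoxia-inducible factors bind, and a match here is a description of the letters only. Bases outside this window were not searched, so the counts do not cover elements further upstream.

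Expression was measured as FPKM (fragments normalised for transcript length and for sequencing depth), which is per length and allows levels to be set side by side between genes. Over the 12 samples AHR had the highest mean of these genes, at 10.9 FPKM, and 1457 of the 4918 genes had a higher mean. CYP1A1 followed with 5.62 FPKM, ARNT with 4.49 FPKM, AHRR with 3.11 FPKM and CYP1B1 with 0.825 FPKM. The receptor, its partner and its repressor were thus all detected in every sample, and CYP1B1 was the only one below 1 FPKM in every sample.

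On hg19, AHR lies on the plus strand of chromosome 7 from 17338276 to 17385771, its canonical transcript has 11 exons and 6243 bases, and it overlaps a long non-coding RNA on the other strand and a protein-coding locus on its own strand, with which it could share reads. ARNT lies on the minus strand of chromosome 1 from 150782189 to 150849075, with 22 exons and 4710 bases. AHRR lies on the plus strand of chromosome 5 from 321829 to 438400, with 11 exons and 5661 bases, and the read-through gene PDCD6-AHRR overlaps it on the same strand. CYP1A1 lies on the minus strand of chromosome 15 from 75011883 to 75017869, with 7 exons and 2603 bases, and CYP1B1 on the minus strand of chromosome 2 from 38294652 to 38303293, with 3 exons and 5217 bases. CYP1B1 overlaps the antisense gene CYP1B1-AS1, and whether reads were assigned by strand is not given in the sources used here. ALDH3A1 lies on the minus strand of chromosome 17 from 19641302 to 19651611.

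**Figure D1:**
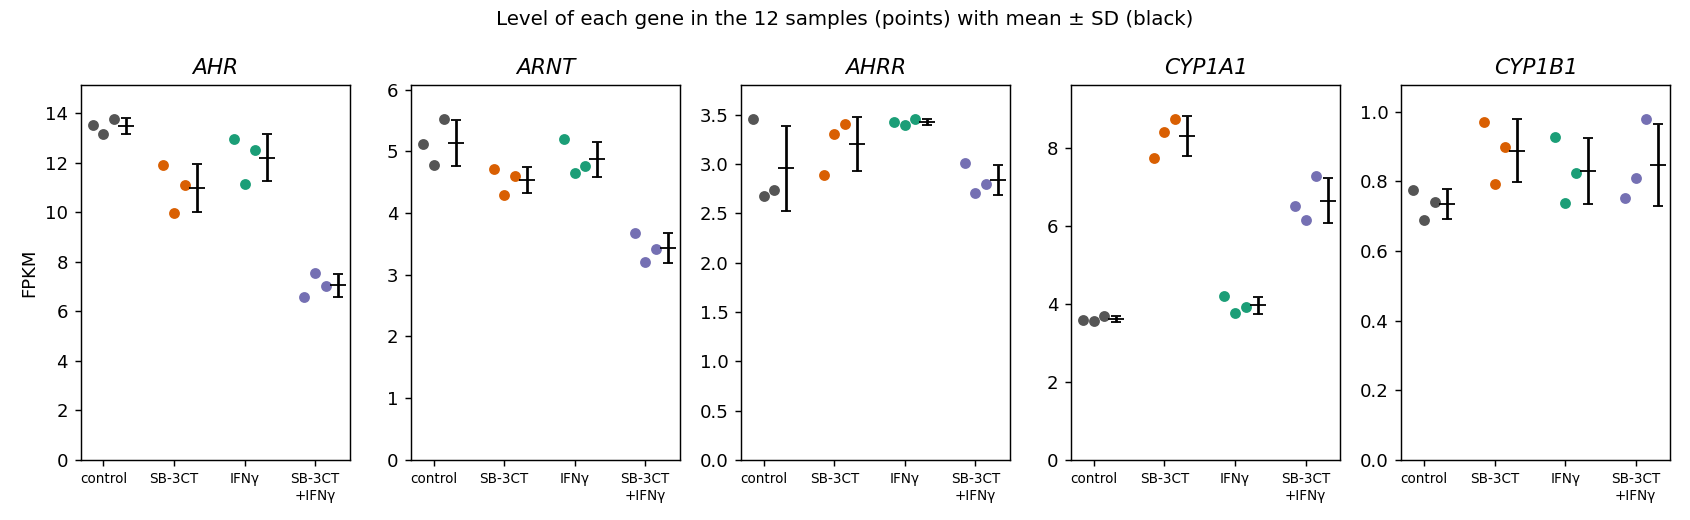
FPKM of AHR, ARNT, AHRR, CYP1A1 and CYP1B1 (y axes, from 0) in the 4 groups (x axes), with 1 point per sample and the mean ± SD (n = 3) in black beside the points. CYP1A1 lies between 6.13 and 8.73 FPKM in the 6 samples with SB-3CT and between 3.55 and 4.19 FPKM in the 6 without, whereas AHR is lowest, at 6.58 to 7.53 FPKM, with SB-3CT and IFNγ.

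Some facts of the whole series touch these values. The deposited values fit log2(FPKM + 1), and changes are given on that scale, which understates changes of low genes. CXCL10, an IFNγ-induced chemokine, reached 81.7 ± 3.97 FPKM (SD, n = 3) with IFNγ and was listed at 0 or near 0 (at most 0.05 FPKM) in the 6 samples without it, so the IFNγ samples carried the response of their labels. Among markers of the cell type, 4 of 10 melanocyte and melanoma genes had a row and summed to between 33.3 and 60.6 FPKM per sample, mostly from CSPG4, while DCT, a pigment enzyme, was below 0.4 FPKM. AXL and EGFR, which mark dedifferentiated melanoma, summed to between 41.4 and 62.2 FPKM. Fibroblast markers (4 of 4 measured) summed to at most 0.646 FPKM, endothelial ones (2 of 2) to at most 0.312 FPKM and T cell ones (2 of 4) to at most 0.161 FPKM. The keratinocyte marker with a row (1 of 5, DSC3) was at most 1.03 FPKM, and CD14 and CD68 (2 of 3 macrophage markers, CD68 being also expressed by many other cells) summed to between 19.8 and 31.7 FPKM. The number of reads is not known, but steps in the lowest values put the depth of the samples between 87.1% and 150.1% of the control mean. Expressed genes, taken as the 3177 whose mean FPKM reached 1, had a median change of -0.20 (log2) for SB-3CT with IFNγ against IFNγ and -0.21 for SB-3CT with IFNγ against SB-3CT, but -0.03 for SB-3CT against control and -0.04 for IFNγ against control. Scaling each sample by the median of its gene-wise ratios to a geometric-mean reference (median-ratio scaling) brought the first pair of medians to 0.02 and 0.01. It also turned the split of calls over all genes, from 315 higher and 1547 lower to 811 and 760 for SB-3CT with IFNγ against IFNγ, and from 386 and 1608 to 675 and 504 against SB-3CT.

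CYP1A1 encodes a P450 enzyme that oxidises polycyclic aromatic compounds, and its mRNA is widely used as a readout of AHR activity. In control cells it was at 3.57, 3.55 and 3.69 FPKM, and with SB-3CT alone at 7.73, 8.41 and 8.73 FPKM. The 3 samples with SB-3CT all lay above the 3 controls, at a ratio of the means of 2.30, or a change of 1.01 on the log2 scale (standard error 0.07). This is the rise on which the genes were selected, and no test is given. RNA came from whole cultures, so more cells expressing CYP1A1 and more CYP1A1 mRNA per cell cannot be told apart.

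The samples with IFNγ took no part in the known rise with SB-3CT alone. The genes were, however, chosen with earlier results of these data known, so SB-3CT with IFNγ against IFNγ is not an independent check. With IFNγ alone CYP1A1 was at 4.19, 3.75 and 3.91 FPKM, and with SB-3CT and IFNγ at 6.51, 6.13 and 7.26 FPKM. Every sample with both agents lay above every sample with IFNγ alone. CYP1A1 rose by 0.62 on the log2 scale (95% interval 0.42 to 0.82, adjusted p = 0.00268 from limma), a ratio of the means of 1.68. Of all 4918 genes, 6.41% were called higher in this comparison, and 39 had a larger rise. The call was kept in all 13 alternatives, with changes from 0.56 to 0.84 (adjusted p at most 0.0231), and after median-ratio scaling the change was in the same direction. Exact permutation of 3 samples against 3 cannot give a two-sided p under 0.1, the value reached here.

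The comparisons of CYP1A1 with and without IFNγ use control or SB-3CT samples whose values chose the gene, so they are described without a test. The change of IFNγ against control was 0.10 (standard error 0.07), and the 3 IFNγ samples lay above the 3 controls. The choice of a gene with low control values favours this direction. In cells that also had SB-3CT, CYP1A1 was lower with IFNγ than without, by -0.28 on the log2 scale (standard error 0.08), a direction that the choice of a gene with high SB-3CT values favours. This difference is close to the median change of -0.21 of expressed genes in that comparison. It was -0.05 after median-ratio scaling and -0.13 once a trend with transcript length was taken out of every sample, and it ranged from -0.34 to -0.24 when 1 sample was left out.
Across the 4 groups the order of CYP1A1 was therefore SB-3CT (8.29 ± 0.513 FPKM, SD, n = 3), SB-3CT with IFNγ (6.64 ± 0.576 FPKM), IFNγ (3.95 ± 0.223 FPKM) and control (3.60 ± 0.076 FPKM). The rise with SB-3CT was 1.01 without IFNγ and 0.62 with it, and the second minus the first was -0.39 (standard error 0.10), given without a test because the first of these values chose the genes.

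**Figure D2:**
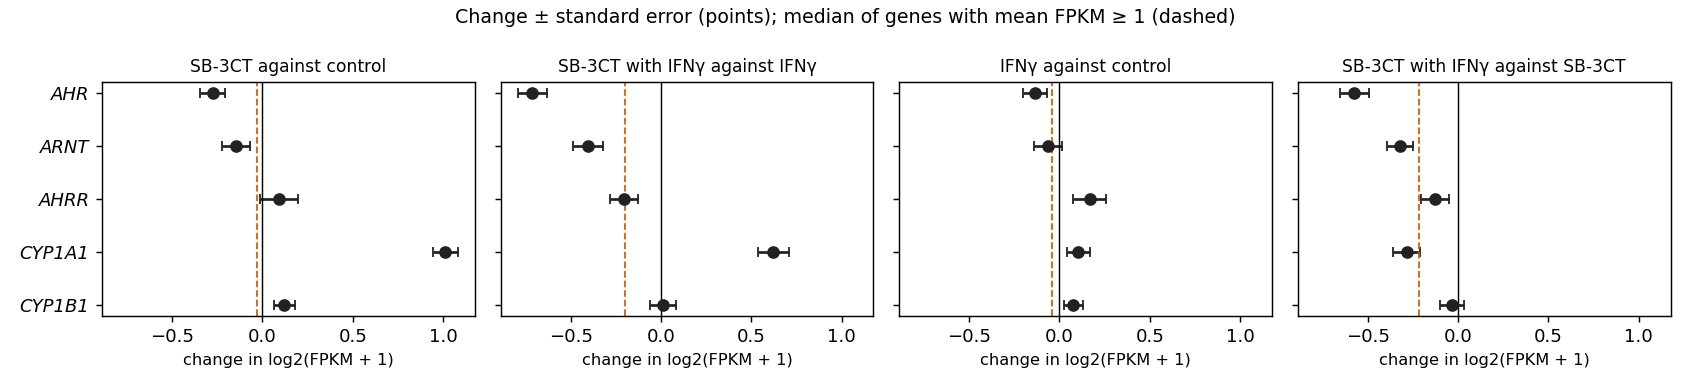
Change in log2(FPKM + 1) ± standard error (x axes) of the 5 genes in the 4 comparisons, with the median change of expressed genes (mean FPKM of 1 or more) as a dashed line. CYP1A1 lies to the right of 0 in both comparisons that add SB-3CT (1.01 and 0.62), and AHR lies furthest to the left wherever SB-3CT and IFNγ were combined (-0.71 and -0.57).

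CYP1B1, the P450 that metabolises oestrogens and polycyclic compounds outside the liver, was not called when SB-3CT was added to IFNγ, unlike CYP1A1. It was at 0.774, 0.688 and 0.740 FPKM in control cells and at 0.972, 0.793 and 0.899 FPKM with SB-3CT, a change of 0.12 on the log2 scale (standard error 0.06), with no overlap between the groups and no test. With IFNγ it was at 0.929, 0.738 and 0.824 FPKM, and with SB-3CT and IFNγ at 0.751, 0.809 and 0.979 FPKM. These last groups overlapped. The change with SB-3CT under IFNγ was 0.01 (95% interval -0.16 to 0.18, adjusted p = 0.923 from limma). The ratio of the mean FPKM was 1.02, where that of CYP1A1 was 1.68. IFNγ against control gave 0.08 (95% interval -0.05 to 0.21, adjusted p = 0.391), and SB-3CT with IFNγ against SB-3CT gave -0.03 (adjusted p = 0.742). With the length trend removed the change with SB-3CT under IFNγ was 0.38 (adjusted p = 0.00312), but that correction also gave 0.18 for CYP1A2, a gene listed at 0 in most samples. CYP1B1 is below 1 FPKM, where the log2(FPKM + 1) scale compresses changes, and with a pseudocount of 0.1 its change with SB-3CT alone was 0.24.

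AHRR, the repressor and feedback target, was at 3.46, 2.68 and 2.74 FPKM in control cells and at 2.89, 3.31 and 3.41 FPKM with SB-3CT, so that the groups overlapped and the change was 0.09 (standard error 0.10). With IFNγ it was at 3.43, 3.40 and 3.46 FPKM, and with SB-3CT and IFNγ at 3.01, 2.71 and 2.80 FPKM. The samples with both agents all lay below those with IFNγ alone, in the opposite direction to CYP1A1. The change of -0.21 (95% interval -0.39 to -0.02) did not pass the adjusted threshold (adjusted p = 0.0739 from limma) and was close to the median change of -0.20 of expressed genes. After median-ratio scaling the change was -0.01 (adjusted p = 0.91 from limma), so the fall depended on the scaling. Without the variance trend in limma its adjusted p was 0.0124, and with the length trend removed the change turned to 0.18 (adjusted p = 0.0938). IFNγ against control gave 0.17 (adjusted p = 0.273) and SB-3CT with IFNγ against SB-3CT gave -0.13 (adjusted p = 0.24), and the latter changed sign, to 0.07, after median-ratio scaling. AHRR thus stayed between 2.68 and 3.46 FPKM in all 12 samples. How reads of the overlapping PDCD6-AHRR were assigned is not given in the sources used here, so the AHRR level is uncertain to that extent.

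AHR mRNA was at 13.5, 13.1 and 13.8 FPKM in control cells, at 11.9, 9.97 and 11.1 FPKM with SB-3CT, at 12.9, 11.1 and 12.5 FPKM with IFNγ, and at 6.58, 7.53 and 7.03 FPKM with SB-3CT and IFNγ. The combination stood apart from the other groups, with its highest sample below the lowest of the other 9. Against IFNγ alone AHR fell by 0.71 on the log2 scale (95% interval -0.90 to -0.52, adjusted p = 0.00209 from limma), which is 1.73-fold lower by the means. Against SB-3CT alone it fell by 0.57 (95% interval -0.77 to -0.38, adjusted p = 0.00292), which is 1.56-fold lower. In the deposited values 31.5% of all genes were called lower in the first comparison and 32.7% in the second, so falls were common. However, only 131 genes fell more than AHR in the first and 186 in the second. Both calls were kept in all 13 alternatives that refit this gene, but a rule of at least a 1.5-fold change on the log2(FPKM + 1) scale kept the call against IFNγ and not the call against SB-3CT. The smallest fall against IFNγ was -0.31, with the length trend removed (adjusted p = 0.00432), and that against SB-3CT, over all alternatives, was -0.34.
Each agent alone moved AHR less. The change with SB-3CT alone was -0.27 (standard error 0.07), with no overlap between the groups and no test. That with IFNγ alone was -0.14 (95% interval -0.29 to 0.02, adjusted p = 0.204 from limma), again with no overlap, and it reached -0.22 (adjusted p = 0.00603) with the length trend removed. The IFNγ and SB-3CT samples, which are neighbours in the order of AHR levels, overlapped with each other. The fall with SB-3CT was 0.44 larger on the log2 scale with IFNγ than without (with minus without -0.44, standard error 0.11), again a value without a test.

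ARNT, the nuclear partner that AHR shares with the hypoxia-inducible factors, had the same order of groups at a lower level. It was at 5.11, 4.77 and 5.52 FPKM in control cells, at 4.71, 4.30 and 4.59 FPKM with SB-3CT, at 5.19, 4.65 and 4.76 FPKM with IFNγ and at 3.68, 3.20 and 3.42 FPKM with both. All 3 samples with both agents lay below the other 9. The change was -0.40 against IFNγ (95% interval -0.60 to -0.21, adjusted p = 0.00851 from limma) and -0.32 against SB-3CT (95% interval -0.49 to -0.15, adjusted p = 0.0141). Unlike those of AHR, these calls depended on the scaling. After median-ratio scaling they were -0.20 (adjusted p = 0.0624) and -0.11 (adjusted p = 0.276), and with the length trend removed -0.05 (adjusted p = 0.603) and -0.09 (adjusted p = 0.309). With SB-3CT alone the change was -0.15 (standard error 0.08), with no test, and with IFNγ alone -0.06 (adjusted p = 0.628).

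Counted together, 1 of the 5 genes was called higher (CYP1A1) and 2 were called lower (AHR and ARNT) when SB-3CT was added to IFNγ, and 4 of the 5 had groups that did not overlap, 1 higher and 3 lower. Over all genes 9.35% lay above and 39.6% lay below without overlap in this comparison. In the deposited values a gene that fell was thus common and one that rose was not. This depended on the scaling, since calls over all genes were 811 higher and 760 lower after median-ratio scaling. With the length trend removed they were 1394 higher and 729 lower. For IFNγ against control 0 of the genes other than CYP1A1 were called by limma, where 19.5% of all genes were, and 0 had an unadjusted p under 0.05. In this comparison 2 of the 5 (AHR and CYP1A1, whose direction the choice favours) did not overlap, where 36.9% of all genes did not. For SB-3CT with IFNγ against SB-3CT AHR and ARNT were called lower, and 3 of the 5 (these and CYP1A1, whose direction the choice favours) lay below without overlap, with 41.9% of all genes below without overlap. With SB-3CT alone 2 genes lay above their controls (CYP1A1 and CYP1B1) and 2 below (AHR and ARNT), where 14.2% and 19.7% of all genes did. SB-3CT against control shares its controls with IFNγ against control, and its SB-3CT samples with the comparison of SB-3CT with and without IFNγ.

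**Figure D3:**
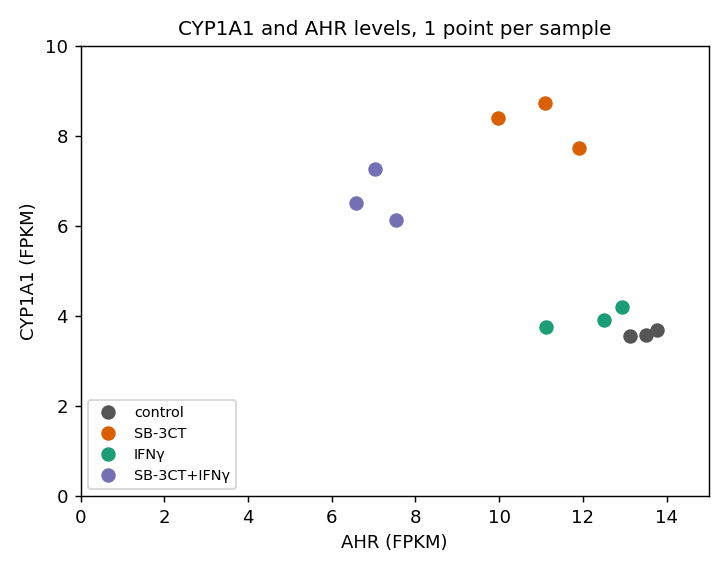
CYP1A1 (y axis) against AHR (x axis), both in FPKM, with 1 point for each of the 12 samples, coloured by group. The 6 samples with SB-3CT lie above 6 FPKM of CYP1A1 at AHR levels from 6.58 to 11.9 FPKM, and the 6 samples without SB-3CT lie below 4.2 FPKM of CYP1A1 at AHR levels from 11.1 to 13.8 FPKM.

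CYP1A1 and AHR thus moved in opposite directions with SB-3CT, and the plot of the levels of the pair shows this sample by sample. The FPKM of CYP1A1 divided by that of AHR in the same sample was 0.268 ± 0.003 (SD, n = 3) in control cells and 0.325 ± 0.012 with IFNγ. It was 0.76 ± 0.0999 with SB-3CT and 0.946 ± 0.116 with SB-3CT and IFNγ. A ratio within a sample is free of the scaling between samples but not of transcript length. All 6 samples with SB-3CT lay above all 6 without. Part of this separation follows from the choice of the genes by the rise of CYP1A1, so it is a description only. The ratio of AHRR to AHR was 0.22 ± 0.032 in control cells and 0.405 ± 0.049 with both agents, while the level of AHRR itself was 2.96 ± 0.435 and 2.84 ± 0.156 FPKM. The ratio of ARNT to AHR was 0.381 ± 0.019 and 0.490 ± 0.067 in the same groups.

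Chaperones, cofactors and bHLH-PAS relatives of AHR were counted from a list of 27 genes, of which 11 had a row. When SB-3CT was added to IFNγ, 7 of the 11 were called lower and 0 higher by limma (8 had an unadjusted p under 0.05), where 31.5% of all genes were called lower. The median change was -0.41, against -0.09 over all genes and -0.20 over expressed genes, to which 10 of the 11 belong. The largest falls were those of CUL4B (-0.78), a scaffold of the ubiquitin ligase that AHR can join, ARNT2 (-0.60), a close relative of ARNT, EP300 (-0.55), a histone acetyltransferase that acts as coactivator, and CLOCK (-0.54), a circadian member of the family. CDC37, which belongs to the chaperone machinery, was not called, nor were DDB1 and ARNTL. This split depended on the scaling, with 5 lower and 2 higher after median-ratio scaling and 1 lower and 1 higher with the length trend removed.
Counts for SB-3CT alone come from the comparison in which the genes were chosen and are given as a description. In it 3 of the 11 were called higher and 0 lower (6 had an unadjusted p under 0.05), where 5.37% of all genes were called higher and 6.87% lower. Among them were DDB1 (0.23), an adaptor of the same ligase family, and EPAS1 (0.20), the hypoxia-inducible factor HIF-2α. DDB1 rose from 65.4 ± 2.13 to 77.0 ± 1.71 FPKM (SD, n = 3). IFNγ raised ARNTL2 (0.95) and EPAS1 (0.21), 2 of the 11, with 8.46% of all genes called higher. Between SB-3CT with and without IFNγ 8 were lower and 1, ARNTL2 (0.71), was higher, where 32.7% of all genes were called lower and 7.85% higher, and after median-ratio scaling 2 were lower and 1 higher. ARNTL2, a circadian relative of ARNT, was thus raised by IFNγ in cells with and without SB-3CT, and it was lower by -0.49 when SB-3CT was added to IFNγ (-0.08, adjusted p = 0.47, with the length trend removed).

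**Figure D4:**
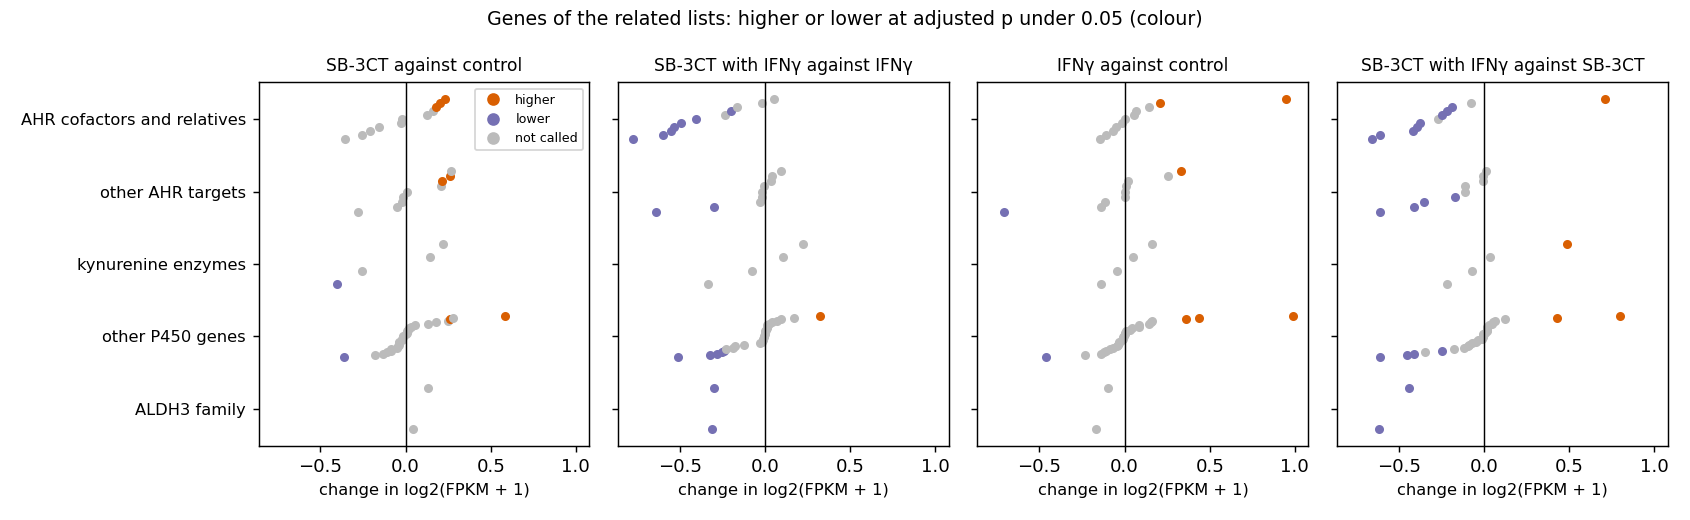
Change in log2(FPKM + 1) (x axes) of each measured gene of the 5 related lists (rows) in the 4 comparisons, coloured by whether limma called it higher, lower or not at an adjusted p under 0.05. When SB-3CT was added to IFNγ 7 of 11 cofactors and relatives were lower, and with IFNγ alone 2 of 11 were higher.

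Other genes known as AHR targets in some tissues were counted from a list of 24, of which 9 had a row. When SB-3CT was added to IFNγ, 0 were called higher and 2 were called lower by limma (2 had an unadjusted p under 0.05), where 31.5% of all genes were called lower. These were CDKN1B (-0.64), an inhibitor of cyclin-dependent kinases, and CCND1 (-0.30), cyclin D1, which kept no call after median-ratio scaling (-0.05, adjusted p = 0.565). BAX, an effector of apoptosis, was called higher after median-ratio scaling (0.35, adjusted p = 0.012) but was at -0.15 (adjusted p = 0.0805) with the length trend removed. The drug efflux pump ABCG2 was called higher with the length trend removed (0.36, adjusted p = 0.0079) but not after median-ratio scaling (0.18, adjusted p = 0.124). The length correction also called CYP19A1 (0.23) and EREG (0.27) higher, genes listed near 0 FPKM. With SB-3CT alone 2 were called higher, where 5.37% of all genes were. These were the P450 gene CYP2S1 (0.26), from 0.186 ± 0.064 to 0.418 ± 0.036 FPKM (SD, n = 3), and BAX (0.21), which was not called after median-ratio scaling. CCND1 (0.25 and 0.27) and ABCG2 (0.29 and 0.34) were called higher after median-ratio scaling and with the length trend removed. CDKN1B went the other way with SB-3CT alone (-0.28, not called). It was called lower after median-ratio scaling (-0.24, adjusted p = 0.0494 from limma) but not with the length trend removed (-0.27, adjusted p = 0.0575). When SB-3CT was added to IFNγ, CYP2S1 was at 0.065 ± 0.037 FPKM against 0.080 ± 0.056 FPKM (change -0.02, adjusted p = 0.789), and 0.16 (adjusted p = 0.0074) with the length trend removed, close to the 0.18 of CYP1A2. CYP1A2, the neighbour of CYP1A1 and the hepatic member of the pair, was listed at 0 in control cells and was at most 0.016 FPKM in any sample. IFNγ lowered AREG (-0.71), an EGF-family ligand, and raised CCND1 (0.33), where 19.5% of all genes were called in either direction. Between SB-3CT with and without IFNγ 4 of the 9 were lower, AREG (-0.61), CYP2S1 (-0.41), ABCG2 (-0.35) and CCND1 (-0.17), where 32.7% of all genes were called lower. Of these CCND1 changed sign under both scalings (0.09 and 0.03) and ABCG2 lost its call (adjusted p = 0.112 and 0.264).

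Enzymes of tryptophan breakdown through kynurenine make AHR ligands, and 4 of the 18 listed had a row. When SB-3CT was added to IFNγ 0 of the 4 were called by limma (1 had an unadjusted p under 0.05), and for IFNγ against control 0 were called (0 had an unadjusted p under 0.05), where 37.9% and 19.5% of all genes were. AFMID, which acts early in the route, was called higher in the first of these after median-ratio scaling (0.45, adjusted p = 0.0186). It was not called there with the length trend removed (0.25, adjusted p = 0.0605). CCBL2, a kynurenine aminotransferase, was the one gene called elsewhere, at -0.40 with SB-3CT alone and 0.49 for SB-3CT with IFNγ against SB-3CT (adjusted p = 0.0118 from limma). The first of these calls was lost under both scalings. AADAT, a second such aminotransferase, was at 7.28 FPKM with IFNγ and at 5.59 FPKM with both agents (adjusted p = 0.0583). IDO1, which makes the first step of this route and responds to IFNγ, was not analysed here.

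ALDH3A1 being without a row, 2 of its 3 listed relatives could be followed. ALDH3A2, the fatty aldehyde dehydrogenase, and ALDH3B1 were lower when SB-3CT was added to IFNγ (-0.31 and -0.30) and lower with both agents than with SB-3CT alone (-0.62 and -0.44). The first pair of calls was lost after median-ratio scaling (adjusted p = 0.31 and 0.439). Neither was called with SB-3CT alone (0.13 and 0.04) or with IFNγ alone (-0.17 and -0.10) by limma, with 1 of 2 and 0 of 2 at an unadjusted p under 0.05. ALDH3A2 was called higher with SB-3CT alone under both scalings (0.17 and 0.19), and lower with IFNγ with the length trend removed (-0.22, adjusted p = 0.00923).

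Genes with the most similar pattern were sought among 3173 others with a mean of at least 1 FPKM, by Pearson's r over the 12 samples on the log2 scale. These samples fall into groups, so r mostly reflects the group means and is given as a description. For CYP1A1 the closest were CLCF1 (r = 0.98), a cytokine of the IL-6 family, CDC34 (r = 0.97), a ubiquitin-conjugating enzyme, and DRAP1 (r = 0.95), a repressor of transcription. CLCF1 was at 9.08 FPKM in control cells, 14.4 FPKM with SB-3CT, 9.36 FPKM with IFNγ and 13.1 FPKM with both, the same order of high and low groups as CYP1A1. For AHR the closest were CDH2 (r = 0.99), which encodes N-cadherin, DIEXF (r = 0.99) and EPS8 (r = 0.99), an actin regulator. CDH2 ran from 14.3 FPKM in control cells to 7.23 FPKM with both agents, close to AHR in level as well. For ARNT they were ERBB2, BACE1 and ARHGAP19 (r = 0.97 for each), and for AHRR, with less likeness, AP2A1 (r = 0.85), ABCB8 (r = 0.83) and DHX37 (r = 0.79).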

How the data were processed

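RNA-seq of 12 A375 samples (4 groups of 3, named by the GEO titles) was used. The authors aligned paired-end reads to hg19 with HISAT2 2.0.5 and computed FPKM with StringTie 1.3.3, by the submitters' processing notes. The annotation and any further scaling are not given in the sources used here. The deposited values fit log2(FPKM + 1) (highest value 12.16), and FPKM was recovered as 2 to the power of the value minus 1. Since the design assumed plain FPKM, its log step was dropped. Sample columns were identified through the titles, with 0 value columns left over. Only 4918 genes were analysed here. How many reads lie behind a value is unknown, which leaves counting error unstated. Relative depth was read from values under 0.15 FPKM (66 of 66 sample pairs matched 1 set of depths to within 0.05, log2).

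Each comparison was fitted in R 4.3.3 with limma 3.58.1 (lmFit, eBayes with trend, unpaired, the 3 + 3 samples of each comparison, no filter) over all 4918 genes with Benjamini-Hochberg adjustment, and a gene was called at an adjusted p-value under 0.05. The fit was tested on simulated data. Alternatives were a pseudocount of 0.1, a filter on mean FPKM, median-ratio scaling, removal of the length trend, 1 fit of all groups, a replicate block, eBayes without trend, a fold-change rule and leaving out each sample. The genes and lists were chosen with earlier results of these data known. All 6 symbols are named, with up to 4 called genes of each list per comparison (1 gene is not reported here) and, for each gene with a mean of at least 1 FPKM, the 3 others of highest r. P450 genes were taken by symbol, and symbols with a pseudogene or antisense RNA ending were left out. Lengths and positions are from GENCODE 44 on GRCh37 (98.6% of symbols had a length, 420 of them through a synonym in RefSeq), and promoters are from RefSeq. The length correction removed a lowess trend (span 0.5) with log2 transcript length from each sample and kept its summed FPKM.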

Additional observations from a re-analysis of the deposited data

Results flagged for a closer look

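For CYP1A1 the IFNγ change had opposite directions in cells without and with SB-3CT. All 3 IFNγ samples (3.75 to 4.19 FPKM) lay above all 3 controls (3.55 to 3.69 FPKM), and all 3 samples with SB-3CT and IFNγ (6.13 to 7.26 FPKM) lay below all 3 with SB-3CT alone (7.73 to 8.73 FPKM). The second change minus the first was -0.39 on the log2 scale. The difference was not tested, since it contains the values that chose the gene, and the fall was -0.05 after median-ratio scaling. The choice of a gene with low control and high SB-3CT values favours both of these directions.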

How the results depend on the processing

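The falls of AHR with SB-3CT and IFNγ against either agent and the rise of CYP1A1 under IFNγ held their direction and their call in all 13 alternatives that refit single genes. The results below did not, values of CYP1A1 against SB-3CT being a description, and beyond the scaling or the sample left out the cause was not tested. After median-ratio scaling ARNT changed by -0.20 (against IFNγ) and -0.11 (against SB-3CT) without a call. Against SB-3CT the change of CYP1A1 was -0.052, and AHRR (0.069) and CYP1B1 (0.092) turned positive. This left AHR as the only tested gene called against SB-3CT. With the length trend removed ARNT changed by -0.049 and -0.095 without a call, and CYP1A1 by -0.13 against SB-3CT. AHRR turned to 0.18 (against IFNγ) and 0.11 (against SB-3CT) under this correction. CYP1B1 rose to 0.38 against IFNγ and turned to 0.22 against SB-3CT (adjusted p = 0.0269 from limma). AHR reached -0.22 for IFNγ against control, the 1 call there. Without the variance trend AHRR was called at -0.21. Where a call needed a 1.5-fold change with an unadjusted p under 0.05 instead, 0 of the 5 genes, AHR included, were called against SB-3CT. For SB-3CT alone, 59 of 64 values stayed within 1 SD, the others being CYP1A1 (1.18) and CYP1B1 (0.24) with a pseudocount of 0.1 and AHR (-0.18), ARNT (-0.072) and CYP1B1 (0.21) with the length trend removed. CYP1B1, with a mean under 1 FPKM, has no value under the filter at that level.

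With 1 sample left out CYP1A1 against SB-3CT ranged from -0.34 to -0.24, CYP1B1 from -0.039 to 0.050 against IFNγ and from -0.084 to 0.0043 against SB-3CT, where -0.039 was without replicate 3 of the combination, -0.02 without IFNγ replicate 2, and 0.0043 without replicate 1 of the combination. With the replicate block the change of CYP1A1 against SB-3CT was -0.28, a description without a test, and no call of a tested gene changed. The labels do not say whether same-numbered samples were paired. Their deviations from the group means correlated between -0.39 and 0.17, which does not settle it. For SB-3CT alone the block left 126 genes higher and 133 lower over all genes, from 264 and 338, and leaving out 1 sample gave from 41 higher and 32 lower (without control replicate 2) to 302 and 610 (without SB-3CT replicate 1). Of 560 counts for the lists, 420 were within 1.5 times of the reported count. Depth is known only in relative terms, so for CYP1B1, CYP2S1, CYP4F11 and CYP1A2, below 1 FPKM, small changes may not have been detectable.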

Other observations

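Beyond CYP1A1 and CYP1B1, 28 other P450 genes had a row, 6 of them with a mean of at least 1 FPKM. CYP4F11, which oxidises fatty acids, was called higher by limma when SB-3CT was added to IFNγ (0.32, adjusted p = 0.0128), and its change with SB-3CT alone was 0.58. CYP27B1, which activates vitamin D, was not called in the first comparison (0.17, adjusted p = 0.16) but was after median-ratio scaling (0.38) and with the length trend removed (0.32). CYP4F11 stood at 0.25 ± 0.096 FPKM in control cells, 0.872 ± 0.15 FPKM with SB-3CT, 0.325 ± 0.063 FPKM with IFNγ and 0.66 ± 0.153 FPKM with both (SD, n = 3), so that, as for CYP1A1, the groups with SB-3CT were the higher ones. CYP51A1, an enzyme of cholesterol synthesis, was lower with SB-3CT alone (-0.36), with IFNγ alone (-0.46) and when SB-3CT was added to IFNγ (-0.51). IFNγ raised CYP4V2 (0.99), CYP2J2 (0.44) and CYP4X1 (0.36) in cells without SB-3CT, where 8.46% of all genes were called higher. In cells with SB-3CT it raised 2 of the 28, CYP4V2 (0.80) and CYP2J2 (0.43), where 7.85% of all genes were called higher. In the same cells 4 were called lower with IFNγ, where 32.7% of all genes were. These were CYP51A1 (-0.61), CYP27C1 (-0.45), CYP2S1 (-0.41) and CYP26B1 (-0.25), and CYP27C1 and CYP26B1 lost this call with the length trend removed. When SB-3CT was added to IFNγ 5 of the 28 were called lower, where 31.5% of all genes were, and CYP4V2 (-0.33), CYP4X1 (-0.28), CYP27C1 (-0.26) and CYP26B1 (-0.24) joined CYP51A1 among them. CYP4V2, CYP4X1 and CYP27C1 lost that call after median-ratio scaling (adjusted p = 0.272, 0.0598 and 0.182), and with the length trend removed CYP51A1 alone kept it (-0.26, adjusted p = 0.0161). The rise of CYP4F11, a gene below 1 FPKM in every sample, was called under both (0.42 and 0.55). The length correction also gave 0.18 for CYP1A2, listed at 0 in most samples.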
